A study of Rattus norvegicus with 10 samples.

Results

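Granule neurons are the principal excitatory cells of the dentate gyrus; they receive input from the entorhinal cortex and send mossy fiber axons to CA3. Prox1, a homeobox transcription factor, sets and maintains granule neuron identity. The nuclei described here were a subset of Prox1-positive nuclei that carried transcripts of Ror2, Itga11, Gcnt4, Tspan18 or Col11a1. Ror2 is a receptor tyrosine kinase that binds Wnt5a, Itga11 is the alpha chain of a collagen-binding integrin, Gcnt4 is an enzyme that branches O-linked glycans, Tspan18 is a tetraspanin of the cell membrane, and Col11a1 is a chain of a fibrillar collagen.

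Nuclei came from the ipsilateral dentate gyrus of 4 male Sprague-Dawley rats, each processed on its own: 2 rats with traumatic brain injury (TBI) from lateral fluid percussion, 1 sham rat that had the surgery without the fluid pulse, and 1 naïve rat that had no surgery. TBI and sham tissue was taken 3 weeks after the procedure. Sham and naïve rats were pooled as control, following the grouping of the study. Neither kind of control therefore had another rat, and the labels put the 4 nuclei libraries in 1 batch. Bulk RNA-seq of the same tissue from other rats (3 sham, 3 TBI) gave a separate measure.

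Members were chosen by a rule on unique molecular identifiers (UMIs, counted transcripts). A nucleus was eligible as a granule nucleus with 500 or more UMIs, at most 5% mitochondrial UMIs, at least 1 Prox1 UMI and at most 1 UMI of Gad1 and Gad2 together. It was a member when the UMIs of the 5 genes above, called B genes, summed to 2 or more and exceeded the sum of each of 3 other sets: A (Niban3, Ano2, Tcerg1l, Myo5b and Otof), C (Bdnf, Robo3, Serinc2 and Smad3) and D (Trabd2b, Deptor, Smo and Rspo3). The rule took 2006 of 20216 eligible granule nuclei (9.92%), which were 3.59% of the 55863 nuclei in the 4 matrices. The same rule with A, C or D in the place of B assigned 2282, 5141 and 2549 nuclei, and these serve below as the other granule nuclei.

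The member nuclei of TBI 1 held 1446923 UMIs, those of TBI 2 934772, those of the sham rat 1207617 and those of the naïve rat 2654998. A member had a median of 2807, 2054, 2493 and 3263 UMIs in these rats, in the same order, which is kept throughout. Per member nucleus, the naïve rat was thus the deepest and TBI 2 the shallowest. The files of each pair of rats shared between 46 and 64 nucleus barcodes, at most 0.455% of the smaller library. With nuclei thinned to 1000 UMIs, members had a median of 767, 723, 729 and 705 detected genes; A nuclei had 771, 736, 743 and 727.

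The members carried most markers of granule neurons, at somewhat lower sums than the other granule nuclei. Prox1, which the rule required, was at 596, 798, 600 and 617 CPM (UMIs of a gene scaled to a common library total) in members, beside 512, 710, 597 and 528 CPM in the other granule nuclei. The 10 genes of the granule identity list summed to 2234, 2492, 2595 and 2312 CPM in members and to 2398, 2821, 2842 and 2431 CPM in A, C and D nuclei, so that members were lower in each rat. Of the 8 identity genes outside the rule with enough UMIs, 5 were lower and 1 was higher in members in all 4 rats (median log2 ratio -0.19). Over all genes with enough UMIs, 16.4% were lower and 13% were higher in all 4 rats. In the members of every rat, 9 of the 10 identity genes were detected. Dsp, which encodes the desmosomal protein desmoplakin and marks granule neurons, had no UMI in the members of any of the 4 rats, and none in the A, C and D nuclei of the naïve rat. Of the 10 markers of immature granule neurons, 9 were measured, and their sums in members were 76.7, 68.5, 43.1 and 69.7 CPM. In A, C and D nuclei the sums were 72.9, 40.2, 56.0 and 50.7 CPM, so that members were higher in each rat but the sham rat. Dpysl5, of this list, was higher in members in all 4 rats (log2 ratio 0.56 ± 0.36, SD), on 26, 13, 9 and 30 UMIs. Eomes, a transcription factor of intermediate progenitors, was at 0 in the members of all 4 rats and in the A, C and D nuclei of the naïve rat.

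Markers of other cells were also summed, and the sums are not compared between lists, which hold different genes. The sum of the 9 markers of pyramidal and mossy neurons was 641, 500, 594 and 429 CPM, of which Grik4, a kainate receptor subunit, made up most, at 478, 390, 474 and 373 CPM. In the other granule nuclei this sum was 696, 514, 654 and 468 CPM. Of the 9 markers, 7 had a UMI in members of each TBI rat and of the sham rat, and all 9 in members of the naïve rat. Fibcd1 and Drd2, which mark CA1 pyramidal and mossy neurons, had no UMI in members of the TBI and sham rats. GABAergic markers, of which the rule limited Gad1 and Gad2, summed to 165, 78.1, 156 and 65.9 CPM. The largest part of these UMIs came from Erbb4 in TBI 1 and the sham rat and from Gad1 in the others. Astrocyte markers summed to 631, 824, 584 and 820 CPM, with no split by condition. The largest part of the UMIs came from Slc1a3, Gfap, Slc1a2 and Slc1a3 in these rats. Markers of oligodendrocyte precursors summed to 92.6, 53.5, 49.7 and 38.4 CPM, those of endothelial cells and pericytes to 91.2, 33.2, 30.6 and 52.7 CPM, and those of microglia to 65.0, 85.6, 24.0 and 54.2 CPM. The microglia sums of the other granule nuclei were 70.2, 83.0, 43.8 and 51.9 CPM. Of the 8 microglia markers, 7 had a UMI in members of TBI 2 and 6 in members of the sham rat. P2ry12, a microglia marker, had none in either. Members with 3 or more UMIs of glial and vascular markers made up 34.1%, 17.3%, 17.7% and 10.5% of members, close to the 38.0%, 19.1%, 19.6% and 10.7% of the other granule nuclei in the same rats.

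The label of the group fitted only part of it. A UMI of Ror2 or Itga11 was present in 235 of the members of TBI 1 (51.4%), 262 of TBI 2 (68.8%), 217 of the sham rat (49.2%) and 377 of the naïve rat (51.9%). Both genes were seen together in 35, 57, 33 and 70 members. The remainder entered through Tspan18, Col11a1 or Gcnt4. Tspan18 was the B gene most often detected in 3 rats, with a UMI in 73.3%, 67.7% and 71.1% of the members of TBI 1, TBI 2 and the naïve rat. In the sham rat, Col11a1 led at 77.3% of members, and Tspan18 was found in 40.8%. Col11a1 was also seen in 5.57%, 2.25%, 11.05% and 6.19% of oligodendrocyte nuclei, which lack Prox1 and are shallower, so that its background was likewise highest in the sham rat; the part of this in the members was not tested. The sham group was therefore a Col11a1-weighted selection, and TBI 2, where Ror2 was found in 47.2% of members against 22.8% to 29.3% in the other rats, a Ror2-weighted one.

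As a description of the rule itself, the B genes are given in CPM of members, with no test. Ror2 was at 98.1, 307, 145 and 118 CPM. Itga11 was at 148, 190, 121 and 117 CPM, and Gcnt4 at 96.1, 135, 90.3 and 114 CPM. Itga11 and Gcnt4 thus varied less between rats than Ror2. Tspan18 stood at 410, 480, 194 and 391 CPM, lowest in the sham rat, and Col11a1 at 285, 204, 704 and 329 CPM, highest in the sham rat. UMIs are not scaled to transcript length, so levels of different genes are not compared. In the plot of the gate genes, members lay above A, C and D nuclei for each B gene in each rat, which the rule fixes; Col11a1 was also seen in A nuclei, at 115, 39.7, 157 and 177 CPM.

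**Figure D1:**
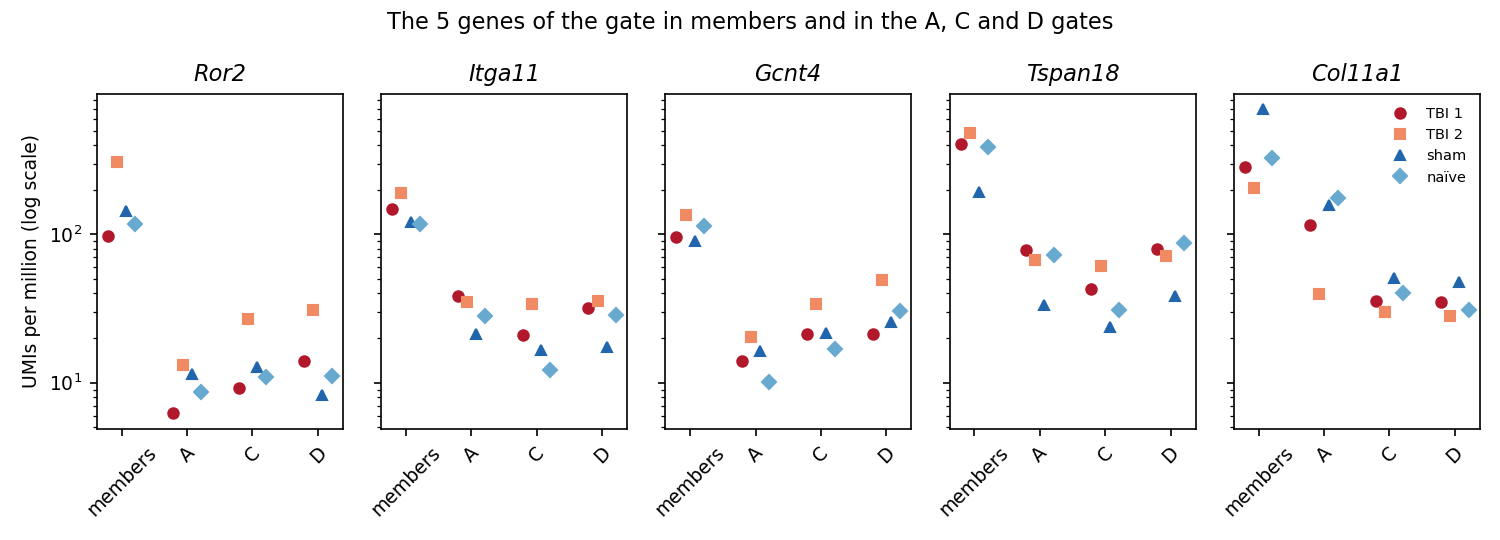
CPM (log scale) of the 5 B genes in members and in A, C and D nuclei, 1 point per rat. Members lie above the other nuclei because these genes chose them; among members, the sham rat is highest for Col11a1 (704 CPM) and lowest for Tspan18 (194 CPM).

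Many members sat at the edge of the rule. B summed to exactly 2 in 186, 163, 170 and 196 members, and 111, 89, 126 and 159 members carried only 1 of the 5 genes. Just outside, 110, 145, 151 and 87 eligible nuclei had a single B UMI and none of A, C or D, and 171, 107, 141 and 244 nuclei were tied with another set. A background was measured in nuclei with 5 or more oligodendrocyte marker UMIs and no Prox1. There the B rule took 2.20%, 1.53%, 2.30% and 1.29% of nuclei, which had a median of 1068, 778, 1243 and 1259 UMIs and so were shallower than members. Among nuclei with no Prox1 UMI and at most 1 Gad UMI, the B rule took 4.47%, 3.45%, 4.57% and 7.42%, and among eligible nuclei with 2 or more Prox1 UMIs it took 12.1%, 11.9%, 10.7% and 18.2%. The former had a median of 1995, 1498, 1744 and 2301 UMIs and the latter 2769, 2001, 2341 and 3140.5. The part of depth in this contrast was not tested.

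How far the B genes shared nuclei is given as a description, since they were picked together as markers of 1 group. Each gene in turn was left out of B, members were chosen by the other 4, and the level of the gene left out was compared with that in A, C and D nuclei. Left-out Ror2 was 3.89-fold, 5.45-fold, 5.43-fold and 4.65-fold as high in members as in the other granule nuclei. The fold was lower for the remaining genes, from 1.90 to 3.15 for Itga11, 1.56 to 3.02 for Gcnt4, 2.42 to 2.91 for Tspan18 and 1.28 to 3.01 for Col11a1. With every nucleus thinned to 1000 UMIs, 8 of the 10 pairs of B genes were found together more often than the product of their single shares in all 4 rats, and the median over pairs was 1.66 times that product. These pairs rest on 1 to 57 nuclei a rat, and nothing is read from them.

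The share of members among eligible granule nuclei did not split by condition at the depth of each library. Members were 457 of 5093 eligible nuclei in TBI 1 (8.97%, 95% Wilson interval 8.22 to 9.79%), 381 of 4702 in TBI 2 (8.10%, 7.36 to 8.92%), 441 of 5366 in sham (8.22%, 7.51 to 8.98%) and 727 of 5055 in the naïve rat (14.4%, 13.4 to 15.4%). The naïve rat stood above the other 3, which lay together. The mean was 8.54% ± 0.615 (SD, n = 2) in TBI and 11.3% ± 4.36 (SD, n = 2) in control, a difference of -2.76 percentage points (p = 0.667 by a two-sided exact permutation test, where 2 rats against 2 allow no p below 0.33). The intervals cover counting error only.

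The naïve rat decided this difference. Without it, TBI lay 0.320 percentage points above the sham rat, and without the sham rat the difference between TBI and the naïve rat was -5.84 points. Of the eligible nuclei, 4831, 4140, 5133 and 4962 had 1000 or more UMIs; with each of these thinned to 1000 UMIs before the rule was applied, 2561, 2680, 2995 and 2583 still passed as granule nuclei. The shares of members among them were 4.49%, 4.81%, 3.94% and 6.04%, and the difference was -0.338 points (exact permutation test, p = 1). Without Tspan18 among the B genes, the shares were 4.36%, 4.47%, 6.56% and 7.87%, so that both TBI rats lay below both controls (difference -2.80 points, exact permutation p = 0.33, the lowest these 4 rats allow). The same order was seen with the nuclei assigned to A, B, C or D as the denominator, where the shares were 14.6%, 14.9%, 15.2% and 21.4% (difference -3.56 points, exact permutation p = 0.33).

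**Figure D2:**
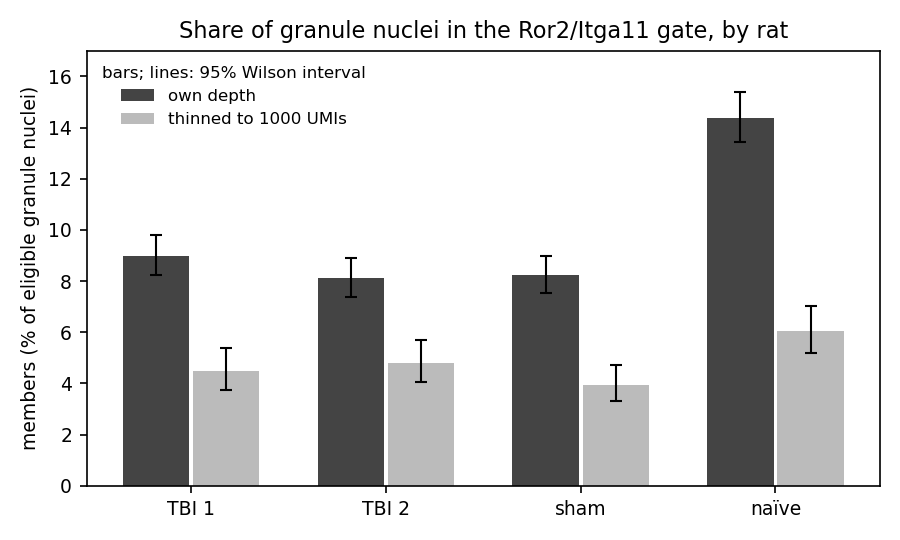
Members as a percent of eligible granule nuclei in each rat, at the depth of each library (dark bars) and with every nucleus thinned to 1000 UMIs (light bars); lines are 95% Wilson intervals. The naïve rat stands at 14.4% at own depth and at 6.04% after thinning, and the other 3 rats lie between 8.10% and 8.97%, then between 3.94% and 4.81%.

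Outside the genes of the rule, members differed from the A, C and D nuclei of the same rat in a recurrent set of genes. Since members were selected on genes of these nuclei, the ratios are a description without a test. Of 10294 genes with 20 or more UMIs in the members or in the other granule nuclei of every rat, 1334 (13%) were higher in members and 1686 (16.4%) were lower in all 4 rats. The size was small for most: 7 genes were higher and 1 was lower by at least 1 on the log2 scale in every rat, and 70 were higher and 61 lower by at least 0.5. Of these 7, Chrm5, a muscarinic receptor, is not among the 15 named below, since it had 18 UMIs in the members of TBI 2 and those were required to have 20; it was singled out after its values were seen. Ratios were taken as log2 of CPM + 5, which understates the difference of low genes.

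The 15 genes with the largest ratio in the rat where it was weakest were of several kinds. By the mean over rats, genes left out by this order, such as Sema3e (1.33), Chga (1.02) and Gabrg3 (1.01), exceeded some of them. At an equal level in both sets, 6 of the 15 would have had under 20 UMIs in the members of some rat. These were Shb, Klhl14, Vav2, Ndst4, Ros1 and Prdm8, which passed the minimum only through their higher level in members. The filter thus bears on their place here. Plekhg3, a guanine nucleotide exchange factor, was at 107, 120, 78.7 and 138 CPM in members and at 29.1, 46.6, 25.0 and 45.4 CPM in the other granule nuclei, a log2 ratio of 1.5 ± 0.18 (SD over 4 rats). Wipf3, of the family that binds the actin regulator WASP, was at 453, 501, 584 and 519 CPM against 216, 225, 217 and 222 CPM (1.20 ± 0.15), so that the groups were well apart in each rat. Rapgef5, an exchange factor for Rap, was at 609, 748, 760 and 605 CPM against 342, 352, 362 and 308 CPM (0.98 ± 0.12). Also among the 15 were Vav2, an exchange factor with a ratio of 1.05 ± 0.24, Cotl1, an F-actin binding protein with 0.92 ± 0.08, and Arhgef37, with 0.86 ± 0.03, the smallest spread of these.

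Adamts17, a secreted metalloprotease, was at 211, 187, 246 and 191 CPM in members against 85.2, 83.0, 77.7 and 62.4 CPM in the other granule nuclei (log2 ratio 1.38 ± 0.22). Prss12, the secreted protease neurotrypsin, had a ratio of 0.99 ± 0.11. Ndst4, which modifies heparan sulfate, varied widely between rats, at 31.1, 143, 74.5 and 21.1 CPM, yet exceeded the other granule nuclei of each rat, at 8.17, 42.0, 38.8 and 5.68 CPM. Hectd2, a ubiquitin ligase, was at 359, 523, 694 and 458 CPM against 189, 206, 233 and 188 CPM (1.26 ± 0.27). Klhl14, a BTB and kelch protein, was at 29.7, 30.0, 105 and 46.3 CPM against 9.42, 12.1, 24.1 and 11.9 CPM (1.45 ± 0.39) and was, like Col11a1, highest in the sham rat. The adaptor Shb (1.26 ± 0.19), the receptor tyrosine kinase Ros1 (1.25 ± 0.29), the Fanconi complex protein Faap100 (1.14 ± 0.06) and the transcriptional regulator Prdm8 (0.98 ± 0.14) completed the 15. The 15 were higher in members of all 4 rats against A, C and D nuclei each, but against A nuclei alone the mean ratio was 0.58 for Klhl14, 0.52 for Prss12, 0.66 for Vav2 and 0.66 for Prdm8, beside 1.95, 1.23, 1.16 and 1.25 against C nuclei alone.

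The genes lower in members were led by Sorcs3, a sorting receptor of the VPS10 family, at 123, 49.2, 102 and 38.4 CPM against 293, 236, 369 and 241 CPM in the other granule nuclei, a log2 ratio of -1.92 ± 0.54. Sv2c, a glycoprotein of synaptic vesicles, had a ratio of -1.30 ± 0.30, and Mapk4, an atypical MAP kinase, one of -1.09 ± 0.14. Tpd52l1 had the most even ratio, at -0.95 ± 0.01. Htra4, a serine protease, Grasp, a scaffold of metabotropic glutamate receptors, Cst6, a protease inhibitor, and Col18a1, a basement membrane collagen, were also among the 10, but each was at under 12 CPM in members and passed the minimum of 20 UMIs only through the other granule nuclei, so that the filter bears on their place here. Mei1 (-1.16 ± 0.32) and AABR07027925.1 (-1.21 ± 0.29), which has no gene symbol in the files, were the others. Against D nuclei alone, Tpd52l1 (-0.29), Htra4 (-0.48) and AABR07027925.1 (-0.34) had smaller mean ratios and 1 rat each with a higher value in members; against A nuclei alone these were -1.81, -1.77 and -2.11.

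Members were also split by whether they had a UMI of Ror2 or Itga11. All 15 higher genes were higher in all 4 rats in either subset and all 10 lower genes were lower, which their choice for ratios of 1 sign in the members as a whole favors. A nucleus with no UMI of either gene may still have expressed them at this depth. The median log2 ratio of the 15 was 1.28 in members with a Ror2 or Itga11 UMI and 1.07 in members with neither.

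**Figure D3:**
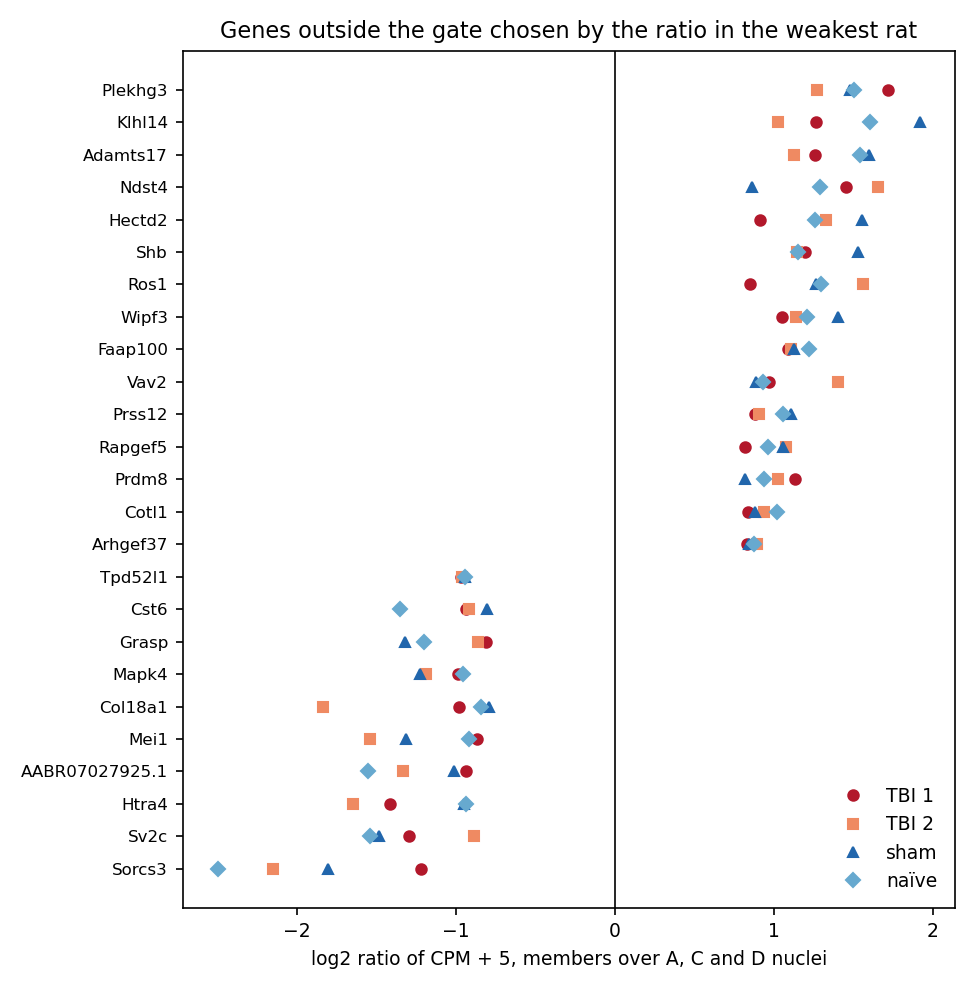
Log2 ratio of CPM + 5 between members and the A, C and D nuclei of the same rat for the 15 genes outside the rule with the largest and the 10 with the smallest ratio in the rat where it was weakest, among genes with 20 or more UMIs in the higher sum of every rat, drawn in order of the mean, 1 point per rat. Every point of the upper 15 lies above 0 and every point of the lower 10 below it; Sorcs3 has the lowest mean (-1.92).

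Gene lists on receptors, channels and secreted proteins showed where members stood among granule nuclei. Over all 10294 genes, the median log2 ratio was -0.02. The minimum of 20 UMIs in either set lets genes pass through the set where they are high, so the counts describe the lists and support nothing. A second filter, chosen after seeing the data, used both sets together and asked for 20 UMIs in members if the level were the same in both. It left 6235 genes, 15.6% higher and 19.3% lower in members in all 4 rats. Of the neuropeptides and granins, 9 passed the first filter, with 6 lower in members in all 4 rats and 1 higher, and 5 passed the second, with 4 lower and 1 higher (median ratio -0.62 by either). Chgb, a granin of dense core vesicles, was at 124, 125, 101 and 199 CPM against 204, 200, 183 and 352 CPM in the other granule nuclei (-0.74 ± 0.08). Penk, which encodes the enkephalin precursor, had 5, 0, 3 and 6 UMIs in members. The exception was Chga, also a granin, at 78.8, 139, 72.9 and 135 CPM against 49.1, 51.8, 30.6 and 65.5 CPM (1.02 ± 0.30).

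Among the 12 GABA-A receptor subunits, 7 were lower and 3 higher in members in all 4 rats, and of the 11 left by the second filter, 7 and 2. Gabra3 had a log2 ratio of -0.90 ± 0.35, whereas Gabrg3 was at 346, 241, 538 and 319 CPM against 214, 111, 233 and 147 CPM (1.01 ± 0.22). Of 26 potassium channel genes 10 were lower and 5 higher (9 and 5 of 21 by the second filter), with Kcnip3, a channel-interacting protein, at -0.54 ± 0.16 and Kcnh5 at 0.62 ± 0.32. Of 20 sodium, calcium and HCN channel genes 6 were higher and 3 lower, and the T-type calcium channel genes Cacna1g (0.69 ± 0.14) and Cacna1h (0.64 ± 0.07) were higher in all 4 rats. Nr3c2, the mineralocorticoid receptor, was at 1401, 2375, 1943 and 1449 CPM in members and at 889, 1147, 1007 and 837 CPM in the other granule nuclei (0.86 ± 0.17), while Nr3c1, the glucocorticoid receptor, had a ratio of -0.11 ± 0.13.

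Signaling and adhesion genes related to the B genes were mixed. Of 35 axon guidance genes 13 were higher and 11 lower in all 4 rats; Sema3e, a secreted semaphorin, was at 123, 82.4, 86.1 and 93.0 CPM against 56.2, 21.4, 48.5 and 24.3 CPM (1.33 ± 0.49). Gli2, a transcription factor of hedgehog signaling, had a ratio of 0.82 ± 0.22, and Acvr1c, an activin receptor, one of -0.80 ± 0.33. Of 18 Wnt receptor and planar polarity genes 3 were higher and 4 lower (2 and 1 of 12 by the second filter). Lrp5, a Wnt co-receptor, was at 0.44 ± 0.12 and Celsr1, a planar polarity cadherin, at -0.59 ± 0.19. The second filter removed both. Lrp5 had 22, 8, 15 and 31 UMIs in members. Celsr1 had 10, 8, 10 and 27 and passed the first filter only through the other granule nuclei, so nothing is read from its ratio. Wnt5a, the ligand of Ror2, had 2, 2, 3 and 3 UMIs in members, too few to compare. Of 12 integrins and collagen receptors 1 was higher, Itga7 (0.60 ± 0.30), a laminin receptor chain, and 5 were lower, among them Itgb4 (-0.79 ± 0.11); the second filter left 6, of which 1 was higher and 3 lower. Of 17 tetraspanins 2 were higher and 5 lower; Tspan15, at -0.92 ± 0.52, was among the lower ones. Of 27 glycan-building enzymes 9 were higher and 7 lower, with Hs3st1 at 0.62 ± 0.19 and Hs6st2 at -0.73 ± 0.35, both of which sulfate heparan. Hs3st1, with 24, 19, 22 and 45 UMIs in members, was removed by the second filter. Of 16 ionotropic glutamate receptor subunits 4 were higher and 7 lower (median ratio -0.08), and of 6 metabotropic receptors 1 was higher and 4 lower (median -0.11), beside 13% higher and 16.4% lower over all genes.

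The comparison of TBI with control within members called no gene. Member UMIs were summed per rat and fitted with edgeR's quasi-likelihood test (2 TBI rats against sham and naïve). At a Benjamini-Hochberg FDR of 0.05 the test called 0 of 9575 genes (0%), 347 genes (3.62%) had an unadjusted p under 0.05, and the smallest adjusted p was 0.66. DESeq2 also called 0, with 94 genes at an unadjusted p under 0.05. In CPM, both TBI rats lay above both controls for 2162 genes (22.6%) and below both for 913 (9.54%). With TMM-scaled CPM, these were 1636 (17.1%) and 1363 (14.2%), so the excess of higher genes depended on the scaling. The count of calls depended on single rats and on the filter: it was 30 without TBI 1, 25 without TBI 2, 4 without the sham rat and 43 when no gene with a UMI was filtered out. The 20 genes named next had the smallest p in each direction among genes that did not overlap; none passed the test.

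The genes with higher values in TBI were of several kinds. Nsmf, which encodes a synapse to nucleus messenger, was at 144 and 163 CPM in TBI and 77.8 and 78.3 CPM in the sham and naïve rats (log2 fold change 0.90 ± 0.20 SE). Ddn, which encodes the postsynaptic protein dendrin, was at 55.3 and 64.2 CPM against 19.9 and 26.4 CPM (1.26 ± 0.29 SE). The choice of genes favors TBI rats that lie close to each other and apart from control. In A, C and D nuclei, Nsmf was at 140 and 155 CPM in TBI against 85.5 and 80.4 CPM in control. Ddn was at 54.4 and 59.7 CPM against 27.0 and 28.2 CPM there. Nptxr, the neuronal pentraxin receptor, was at 111 and 93.1 CPM against 59.6 and 52.4 CPM (0.81 ± 0.22 SE). Dpysl3, a collapsin response mediator of growing axons, was at 23.5 and 18.2 CPM against 4.14 and 6.03 CPM (1.90 ± 0.48 SE). The value of Dpysl3 rested on 34 and 17 UMIs in TBI and 5 and 16 in control. Cntnap5c, a contactin-associated protein, was at 74.6 and 153 CPM against 41.4 and 41.1 CPM. Glb1, the lysosomal beta-galactosidase, was at 46.3 and 55.6 CPM against 23.2 and 22.2 CPM (1.09 ± 0.29 SE). Rapgefl1, AABR07057997.1 and LOC100360841 were the other genes with higher values; of these, LOC100360841 had only 55 and 9 UMIs against 1 and 8.

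The smallest p of all belonged to Bcas1, a gene of myelinating oligodendrocytes. It was at 115 and 126 CPM in TBI and 40.6 and 44.1 CPM in control (log2 fold change 1.43 ± 0.22 SE, edgeR adjusted p = 0.66). The sum of oligodendrocyte markers also lay above both controls in both TBI rats, in members and in the other granule nuclei. In members the 7 genes summed to 321 and 381 CPM in TBI against 245 and 181 CPM in control. In A, C and D nuclei the sums were 340 and 407 CPM against 255 and 198 CPM. Of the 5 tested singly in members, 3 lay above both controls and 0 below, beside 22.6% and 9.54% of all genes tested. Opalin, at 9.68 and 3.21 CPM against 7.45 and 3.01 CPM, overlapped. All 7 had a UMI in every rat, and Mbp was at 203 and 261 CPM against 154 and 107 CPM. The sums of oligodendrocyte precursor and microglia markers given above also lay above both controls in both TBI rats. Those of astrocytes and of endothelial cells and pericytes did not. The part of these cells in the value of Bcas1 was not tested. With nuclei of 3 or more glial and vascular marker UMIs left out, the log2 fold change of Bcas1 was 3.02 (edgeR adjusted p = 1.0).

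Among the genes with lower values in TBI, Chst1, a sulfotransferase of keratan sulfate, was at 140 and 105 CPM in TBI and 204 and 283 CPM in control (-1.06 ± 0.22 SE). Klhl14 was at 29.7 and 30.0 CPM against 105 and 46.3 CPM (-1.38 ± 0.39 SE, and -0.71 without the sham rat). Col11a1 was at 285 and 204 CPM against 704 and 329 CPM (-1.14 ± 0.32 SE, and -0.49 without the sham rat). Since Col11a1 also chose the members, its values describe the selection, and nothing is read from them. Zfp286a, a zinc finger gene, Ap1ar, a regulator of the AP-1 adaptor, and Nudc, a nuclear distribution gene, had log2 fold changes of -1.58 ± 0.41, -1.01 ± 0.28 and -1.43 ± 0.41 (SE). Nexn, an actin-binding protein, rested on 4 and 1 UMIs in TBI against 13 and 25. AABR07040864.1, AABR07044925.1 and RGD1561590 made up the rest.

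**Figure D4:**
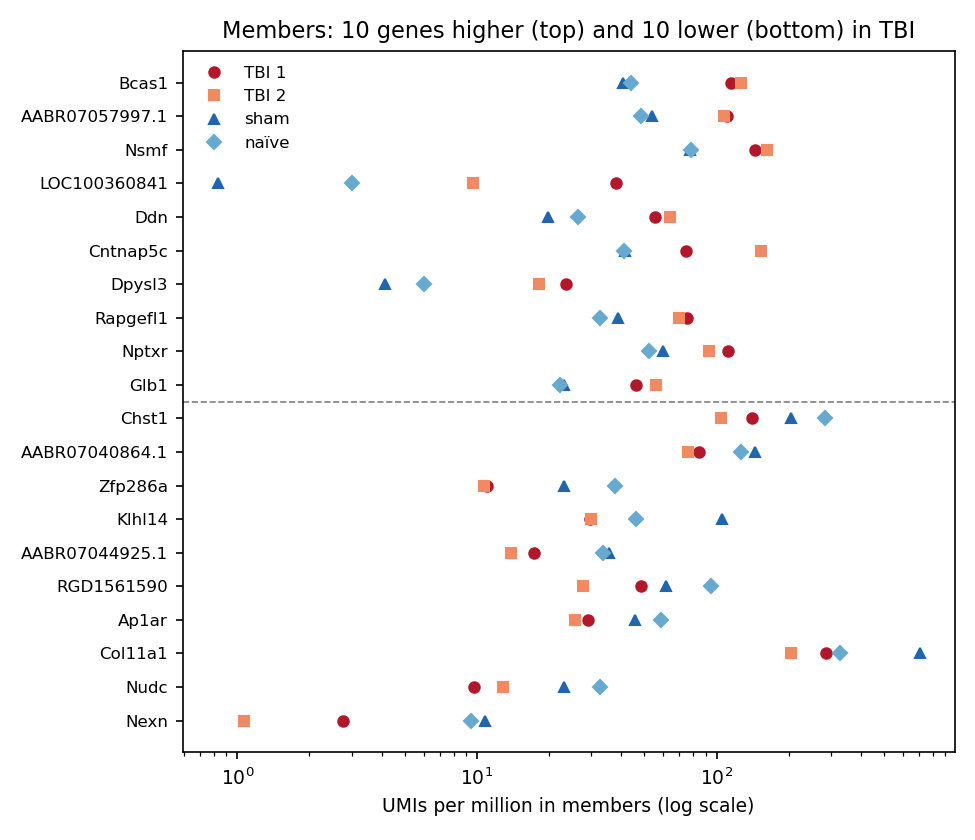
CPM (log scale) in members of each rat for the 10 genes with the smallest p among those higher in TBI (above the dashed line) and the 10 among those lower (below it). The genes were chosen because the 2 TBI rats lie on one side of the 2 controls, and none passed the edgeR test. Col11a1, among the lower 10, also chose the members.

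No gene list held a called gene in members. Over 9556 tested genes outside the rule, 2157 lay above both controls in TBI and 911 below, and the median log2 fold change was -0.0028. Among 7 collagens, 5 lay above both controls (median 0.65), with Col11a2 at 48.4 and 47.1 CPM against 20.7 and 24.1 CPM (1.0 ± 0.29 SE) and Col4a2 at 47.7 and 31.0 CPM against 19.9 and 21.1 CPM (0.87 ± 0.33 SE). Among 19 genes of TGF-beta, BMP and hedgehog signaling 9 lay above both controls and 1 below (median 0.11), and among 26 glycan-building enzymes 10 lay above and 1 below (median 0.03).

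Of 17 Wnt receptor and planar polarity genes outside the rule 7 lay above and 2 below (median -0.02), and of 35 axon guidance genes 9 above and 1 below (median 0.05), among the former Efnb3, an ephrin, at 82.9 and 81.3 CPM against 38.9 and 49.3 CPM (0.81 ± 0.24 SE). Of 12 integrins and collagen receptors 2 lay above and 3 below; Itga9 was at 27.0 and 36.4 CPM against 14.1 and 10.9 CPM (1.28 ± 0.39 SE), and Itgb3, with values the other way, at 4.84 and 4.28 CPM against 11.6 and 12.1 CPM (-1.43 ± 0.54 SE). Activity-induced genes had 3 of 11 above and 1 below (median 0.30), and none of 6 corticosteroid receptors and targets lay above or below. In the channel and receptor lists, 6 of 26 potassium channel genes, 4 of 20 sodium, calcium and HCN channel genes, 2 of 16 ionotropic glutamate receptors and 0 of 12 GABA-A subunits lay above both controls, and 0, 0, 2 and 2 lay below both. Neuropeptides and granins had 1 of 7 above and 0 below, and tetraspanins 5 of 14 above and 1 below. These counts are of unscaled CPM. In TMM-scaled CPM, where 1632 of the 9556 genes lay above and 1361 below, the genes of TGF-beta, BMP and hedgehog signaling had 7 above and 2 below, glycan-building enzymes 8 and 2, potassium channel genes 3 and 0, sodium, calcium and HCN channel genes 3 and 2, ionotropic glutamate receptors 1 and 3, and tetraspanins 2 and 1. Neuropeptides and granins had 1 above and 1 below in TMM-scaled CPM. The collagens, Wnt, axon guidance and integrin lists had the same counts by both.

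Whether the difference between TBI and control in members differed from that in the other granule nuclei was tested as an interaction in edgeR, with rat as a block. The test called 0 of 12355 genes (0%), with 553 at an unadjusted p under 0.05; DESeq2 called 0, with 41. Without TBI 1, the sham rat or the naïve rat, edgeR called 6, 13 and 4 genes, and without the filter 6. The smallest p were those of Cdh10, Iqgap2, Sorcs1, Grm8 and Pdzd2 (adjusted p = 0.64 each). Grm8, a presynaptic metabotropic glutamate receptor, was at 128 and 93.1 CPM in TBI and 65.4 and 50.8 CPM in control in members, and at 137, 118, 111 and 101 CPM in the other granule nuclei (difference of log2 fold changes 0.69 ± 0.15 SE). Sorcs1, a sorting receptor like Sorcs3, was at 84.3 and 85.6 against 57.1 and 49.0 CPM in members and at 94.2, 90.5, 92.6 and 101 CPM elsewhere (0.77 ± 0.17 SE). Cdh10, a cadherin, differed by 0.59 ± 0.12 (SE), and it was called (1.15 ± 0.19 SE, edgeR adjusted p = 0.0020) once nuclei with 3 or more glial and vascular marker UMIs were left out, where Sorcs1 differed by 1.41. Without Tspan18 in the rule the differences were smaller, 0.22 for Cdh10 and 0.43 for Sorcs1, and neither was called. Iqgap2, a scaffold of the actin cytoskeleton, and Pdzd2, on the granule identity list, differed by -0.44 ± 0.09 and -0.44 ± 0.10 (SE).

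The 20 genes named for TBI in members had log2 fold changes of the same sign in A, C and D nuclei of the same rats. The 10 higher genes had a median of 1.18 in members and 0.71 in the other granule nuclei. Because they were picked for their values in members and both sets share rats, the smaller value elsewhere is no finding.

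In bulk tissue of other rats, the B genes did not separate TBI from sham. Gcnt4 is not analysed here in bulk. Ror2 was at 2.79, 1.10 and 0.99 log2 CPM in the sham libraries and 2.49, 1.32 and 2.5 in the TBI libraries, a difference of 0.47 ± 0.54 SE (limma adjusted p = 0.88). Itga11 was at 3.79, 1.57 and 1.21 in sham and 3.30, 1.79 and 2.93 in TBI (0.48 ± 0.69 SE, limma adjusted p = 0.91). Both genes followed Prox1 in outline, which was at 6.72, 4.68 and 4.0 in sham and 6.25, 4.63 and 5.58 in TBI: the library highest for Prox1, sham 1, was highest for each of them, and sham 3 was lowest for all 3 genes. Tspan18 (-0.11 ± 0.29 SE) and Col11a1 (0.06 ± 0.27 SE) spanned less than 1 log2 unit over the libraries, and their groups overlapped. In bulk, fewer cells of a type and less RNA per cell cannot be told apart.

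Taken relative to Prox1 in the same library, Itga11 ranged over 0.46 log2 units in place of 2.57 and Ror2 over 0.93 in place of 1.79. Tspan18 and Col11a1 ranged more widely that way, over 2.10 in place of 0.91 and 2.01 in place of 0.98. For Itga11 the difference between TBI and sham was 0.13 (exact permutation test, two-sided, p = 0.5, adjusted over 4 genes 0.8). The same difference was 0.12 for Ror2, -0.46 for Tspan18 and -0.29 for Col11a1 (adjusted exact permutation p = 0.8 each). The listed dates of injury or sham procedure fell in 2 periods, called surgery periods here. In each, 1 of the groups had a single library (2 sham and 1 TBI in spring, 1 sham and 2 TBI in autumn). Within them the difference in log2 CPM was 0.54 and 0.91 for Ror2, 0.62 and 1.15 for Itga11, 0.32 and -0.24 for Tspan18, and -0.49 and 0.80 for Col11a1, spring first.

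**Figure D5:**
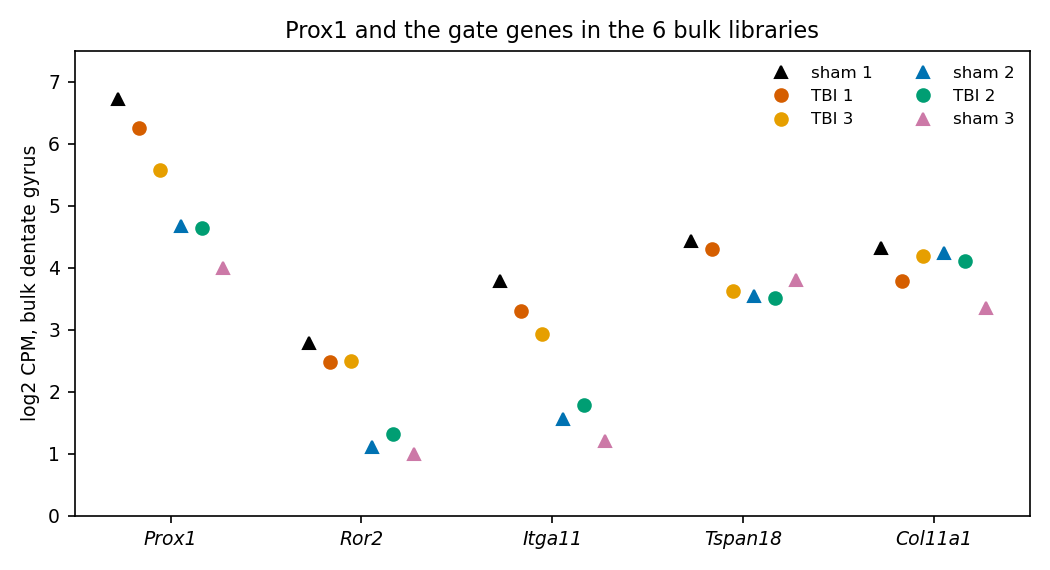
Log2 CPM of Prox1 and of 4 B genes in the 6 bulk libraries of other rats, triangles sham and circles TBI, drawn in falling order of Prox1. Ror2 and Itga11 are highest in the library with most Prox1 (sham 1) and lowest in that with least (sham 3); Tspan18 and Col11a1 lie within 1 log2 unit.

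Over all 14166 bulk genes limma called 0 (0%), with 1340 at an unadjusted p under 0.05. This holds for limma on the deposited log2 CPM. From the same libraries the study, with DESeq2 on counts, reported genes that differed, nearly all of them higher in TBI. With the replicate number as a block limma called 125 (124 higher, 1 lower), but the numbers were not taken as pairs. All TBI libraries lay above all sham libraries for 11.7% of genes and below for 3.04%. Of the 10 genes with higher values in TBI members, 7 were in the bulk table, 3 had the same sign and 1, Glb1, had libraries that did not overlap. Glb1 was at 4.02, 3.95 and 4.03 log2 CPM in sham and 4.72, 4.86 and 4.48 in TBI (0.69 ± 0.13 SE, limma adjusted p = 0.15), beside a log2 fold change of 1.09 in members. Bcas1 was at 7.53, 9.10 and 7.84 in sham and 7.53, 8.15 and 7.65 in TBI (-0.38 ± 0.38 SE), with no separation. Of the 10 genes with lower values in TBI members, 7 were in the bulk table. Of these, 4 had the same sign and 0 were separate in that direction. Nexn was separate the other way, at 0.66, 0.06 and 0.74 log2 CPM in sham and 1.31, 1.10 and 3.19 in TBI. Its difference was 1.38 ± 0.56 SE (limma adjusted p = 0.48). Klhl14 differed by -0.69 ± 0.55 (SE) and Chst1 by -0.09 ± 0.13 (SE).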

How the data were processed

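Per the labels and the study's methods, 10x Genomics 3' libraries of dentate gyrus nuclei were aligned to Rnor_6.0 with Cell Ranger over exons and introns; the deposited matrices hold whole-number UMI counts for 25399 genes. Between 1.63% and 27.4% of the stored entries were 0 and were read as 0; no source used here says why they were stored, or whether counts were changed after Cell Ranger. For bulk RNA-seq, the authors deposited kallisto estimated counts per transcript (25121893 to 44649404 per library, used for depth only) and filtered gene-level log2 CPM, which was tested as deposited. Each rat is 1 replicate. The dates of injury or sham procedure served only to tell 2 periods apart.

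Nuclei were selected by the stated rule, with no doublet caller, and UMIs were summed per rat. Tests were edgeR 4.0.16 (TMM, filterByExpr, quasi-likelihood), DESeq2 1.42.0 as an alternative, limma 3.58.1 with trend for bulk, and exact permutation tests over rats; the edgeR and limma fits were tested on simulated data. R 4.3.3 and Python 3.11.15 were used. In edgeR and limma, adjusted p is Benjamini-Hochberg over all genes tested. The design was written for sums of counts and log2 CPM, as found.

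Genes were named by rule: the genes of the rule; the 10 higher and 10 lower in TBI with the smallest p among genes whose rats did not overlap; the 15 largest and 10 smallest ratios in the weakest rat; the 5 smallest interaction p; and up to 4 genes a list. Wnt5a, Chrm5, Dsp, Eomes, Fibcd1, Drd2 and P2ry12 were named after their values were seen. Members and lists were chosen with earlier results of these data known. Listed genes such as Sox4, Pecam1, Fzd10, Itgb5, Col1a2 and Col6a3 are not analysed here.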

Additional observations from a re-analysis of the deposited data

How the results depend on the processing

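The limits are 2 rats against 2, a control arm of 1 sham and 1 naïve rat, naïve nuclei deeper than the rest, and members that for the most part carry 2 or 3 UMIs of the B genes. The share kept its sign in all settings but 1: without the naïve rat it was 0.320 points, and leaving out each rat gave -5.84 to 0.320.

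The 0 calls for TBI in members became 43 with only genes at 0 UMIs left out, and 0 to 30 with each rat left out (30 without TBI 1, 25 without TBI 2, 4 without the sham rat, 0 without the naïve rat). A lone rat is then assumed to vary like the other arm. For the difference between members and other granule nuclei, 0 calls became 6 without the filter, 1 without nuclei of 3 or more glial and vascular UMIs, and 0 to 13 with each rat left out (6 without TBI 1, 13 without the sham rat, 4 without the naïve rat). The cause was not tested. The remaining planned settings (DESeq2, RLE, deeper nuclei, B of 3 or more, no Tspan18, the study filters, a stricter threshold and all other eligible nuclei as comparator) gave 0 in the fits where they were run, as did all eligible nuclei or A, C and D nuclei in place of members, both added after seeing the data. So were TMM-scaled CPM, the surgery period and Prox1 as a reference in bulk, and the split by Ror2 or Itga11.

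In bulk, the replicate number as a block gave 125 calls (124 higher, 1 lower) in place of 0. Same-numbered libraries correlated at 0.352, 0.173 and -0.0297, replicate 3 did not correlate best with its own number, and so the numbers were not taken as pairs. Leaving out each library gave 0 to 1 calls. No paired analysis was possible for nuclei because the groups share fewer than 2 replicate numbers.

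Of single genes, the bulk differences that changed sign were Itga11 without sham replicate 3 (-0.0035), Tspan18 without sham replicate 1 (0.14), without TBI replicate 2 (0.040) and with surgery period as a term (0.042), and Col11a1 after quantile normalization (-0.087), without sham replicate 3 (-0.25) and without TBI replicate 3 (-0.022). Leaving out each library gave -0.0035 to 1.28 for Itga11, -0.36 to 0.14 for Tspan18 and -0.25 to 0.24 for Col11a1. No named log2 fold change in members, interaction difference or ratio changed sign. The counts here are of values, 1 for each gene and setting. Of the fold changes in members 284, and of the interaction differences 63, stayed on their side of the threshold, and the others passed it. As the main fits called 0 genes, staying there is no sign of stability. Of the ratios, 14 moved by more than 1 SD and 111 did not. In size, 6 fold changes in members moved by more than 1.5 times: Bcas1 from 1.43 to 3.02 without nuclei of 3 or more glial and vascular UMIs, LOC100360841 from 3.34 to 5.26 with the study filters and to 2.06 without TBI 1, Cntnap5c from 1.38 to 0.71 without TBI 2, and without the sham rat Klhl14 from -1.38 to -0.71 and Col11a1 from -1.14 to -0.49. So did 4 interaction differences, Cdh10 (0.59) and Sorcs1 (0.77), which were 0.22 and 0.43 without Tspan18 and 1.15 and 1.41 without the glial and vascular nuclei. In other nuclei in place of members, 19 did, such as Dpysl3, at 1.90 in members and 0.33 in A, C and D nuclei.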
